A study of Mus musculus with 6 samples.

Results

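Creatine synthesis, creatine transport and creatine kinases were examined in the granule cell layer of the dentate gyrus (DG) after adult loss of Bcl11b/Ctip2, a zinc finger transcription factor. The 6 genes are the synthesis enzymes Gatm and Gamt, the transporter Slc6a8, the cytosolic kinase Ckb and the mitochondrial kinases Ckmt1 and Ckmt2. They were matched by gene symbol in the platform annotation, and all 6 were found among the 19938 genes measured, each with 1 probe set that is paired with no other gene. They were chosen by function with their mutant and control log2 levels on these arrays already known, so their differences in this contrast are given as a description, with no test.

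The granule cell layer was cut out by laser capture microdissection from cryosections stained with cresyl violet, and RNA from 3 control samples and 3 mutant samples was measured, each on its own Affymetrix whole-transcript array. All mice belonged to the tet-off line and received doxycycline from embryogenesis to 2 months of age, and samples were taken 4 weeks after its removal. Mutants carried Bcl11b flox/flox with tetO-Cre and CaMKIIα-tTA, so that a transactivator made under the CaMKIIα promoter in forebrain neurons turned on Cre once doxycycline was withdrawn. The labels call the controls Bcl11b control mice, and no source used here gives their genotype in this line. The values are log2 expression values, on which a difference of 1 is a doubling. No source states that each array holds a separate animal, so errors and p-values reflect how far these samples differ, which may be technical.

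Creatine carries high-energy phosphate in cells with a large and uneven demand for ATP, such as neurons. Gatm transfers the amidino group of arginine to glycine, which gives guanidinoacetate, and Gamt methylates guanidinoacetate to creatine with S-adenosylmethionine as the methyl donor. Slc6a8 takes creatine up across the plasma membrane. Creatine kinases then move phosphate between ATP and creatine, with Ckb in the cytosol of brain cells and Ckmt1 and Ckmt2 at the inner mitochondrial membrane, Ckmt1 being the ubiquitous and Ckmt2 the muscle form. In brain, the synthesis enzymes are known from glia as well as from neurons.

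Bcl11b itself had a log2 level between 10.30 and 10.56 in controls and between 8.68 and 9.03 in mutants, a log2 difference of -1.58 (limma, standard error 0.099, adjusted p = 2.56e-05). No source used here tells whether its probes fall in the part of the gene that Cre removes. The medians of the 6 arrays ranged from 6.29 to 6.36 on the log2 scale.

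The synthesis enzymes were the creatine genes with the largest differences, and both were higher in the granule cell layer of mutants. The log2 level of Gamt was 7.46, 7.99 and 7.61 in controls 1, 2 and 3, and 10.22, 9.97 and 10.31 in mutants 1, 2 and 3. Every mutant array lay above every control array, and the closest pair, control 2 and mutant 2, was still 1.99 apart on the log2 scale. The group means were 7.69 ± 0.27 (SD, n = 3) and 10.17 ± 0.18 (SD, n = 3), which is a log2 difference of 2.48 (standard error 0.13) or a fold of 5.58. Among all 19938 genes this was the 12th largest increase and the 16th largest difference in either direction.

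The log2 level of Gatm, the enzyme of the step before Gamt, was 9.12, 9.06 and 9.35 in controls 1, 2 and 3, and 9.77, 9.81 and 9.72 in mutants 1, 2 and 3. The groups again did not overlap, with a smallest gap of 0.37 between control 3 and mutant 3. The mean of the controls was 9.18 ± 0.15 (SD, n = 3) and that of the mutants 9.77 ± 0.046 (SD, n = 3), a log2 difference of 0.59 (standard error 0.079) or a fold of 1.51. It held rank 459 among the increases of all genes. Of the 6 creatine genes, these 2 passed an adjusted p under 0.05 in limma, both of them higher, where 15.2% of all genes passed in either direction and 9.23% were higher. Since the genes were picked with this contrast known, nothing is read from that count. With the unpaired test of the study's methods after Benjamini-Hochberg adjustment, Gamt alone passed.

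**Figure D1:**
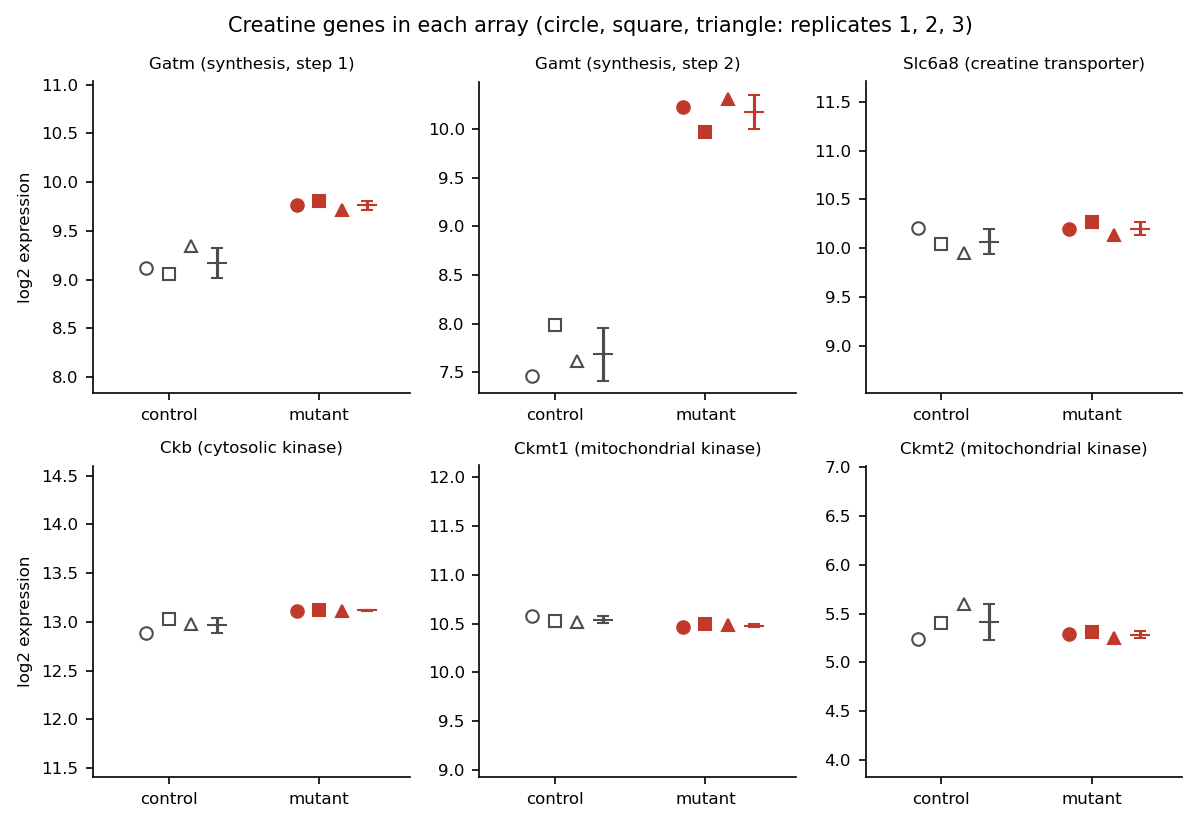
Log2 expression of the 6 creatine genes in each array on the vertical axis, with controls as open grey and mutants as filled red symbols. Circles, squares and triangles are replicates 1, 2 and 3, bars beside them mark mean and SD over the 3 arrays of a group, and every panel spans the same number of log2 units. Gamt goes from 7.69 to 10.17 and Gatm from 9.18 to 9.77, while the groups of the other 4 genes lie close together.

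The promoter windows of Gamt and Gatm are shown because these are the members with the largest differences, and because the study names the letters TGGGC as a putative Bcl11b/Ctip2 binding sequence. They run from 250 bases before to 50 bases after the annotated start in RefSeq on build GRCm38.p6, are written 5′ to 3′ on the strand of the gene, and carry every TGGGC of either strand in capitals (GCCCA where it lies on the opposite strand). The Gamt window is chr10:80260963-80261262 on the minus strand and the Gatm window chr2:122611228-122611527, also on the minus strand.
Gamt: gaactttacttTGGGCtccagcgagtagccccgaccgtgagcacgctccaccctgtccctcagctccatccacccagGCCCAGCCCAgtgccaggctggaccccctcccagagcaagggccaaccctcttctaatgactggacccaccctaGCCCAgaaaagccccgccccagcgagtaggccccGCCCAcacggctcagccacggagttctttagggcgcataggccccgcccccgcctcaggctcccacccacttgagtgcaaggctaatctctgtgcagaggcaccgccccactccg
Gatm: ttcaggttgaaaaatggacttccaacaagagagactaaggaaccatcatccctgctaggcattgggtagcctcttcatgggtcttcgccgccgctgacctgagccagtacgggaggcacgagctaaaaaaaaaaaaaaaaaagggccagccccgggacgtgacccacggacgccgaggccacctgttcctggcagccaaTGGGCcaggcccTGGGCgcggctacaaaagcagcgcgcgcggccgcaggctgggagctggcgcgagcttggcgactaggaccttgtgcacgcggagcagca
The Gamt window held 5 matches, 1 on the strand of the gene and 4 on the opposite strand, and of these a pair lay directly next to each other without overlap. Counted from the start site as 0, the first began at position -239 and the last at -65. The Gatm window held 2 matches, at -51 and -39, both on the strand of the gene. Of 32851 such windows of all genes, 56.9% held at least 1 match, 24.3% at least 2 and 0.679% at least 5. The Gamt window was 66.0% G and C and the Gatm window 60.7%, where the median of all windows was 52.7%.

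Windows were at hand for 5 of the 6 members, all but Slc6a8. The Ckb window held 2 matches and so did that of Ckmt2, genes whose groups differed little. Ckmt1 has 2 annotated starts, of which the first held no match and the second held 1. A match is a run of 5 letters and no measure of binding, and no binding was measured at these genes. The study reported Bcl11b/Ctip2 enrichment at a C1ql2 promoter region with this sequence and at a Sema5B region without it.

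**Figure D2:**
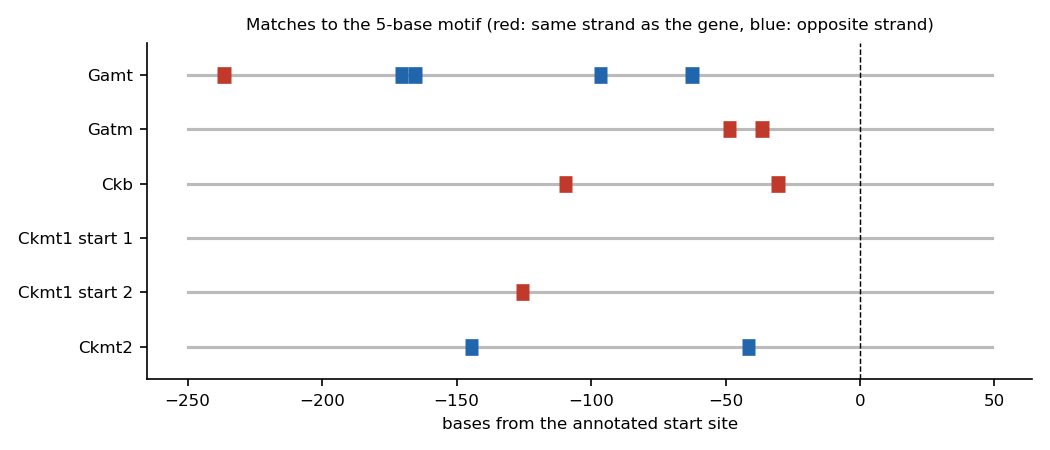
Position of each match to the 5-base motif in the promoter windows of 5 creatine genes, in bases from the annotated start site (dashed line) on the horizontal axis. Red blocks lie on the strand of the gene and blue blocks on the opposite strand. Gamt has 5 matches between -239 and -61, and no other window has more than 2.

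The transporter differed less between groups than its arrays differed among themselves. The log2 level of Slc6a8 was 10.21, 10.04 and 9.95 in controls 1, 2 and 3, and 10.19, 10.27 and 10.13 in mutants 1, 2 and 3. The groups overlapped, since control 1 lay above mutants 1 and 3. The log2 difference was 0.13 (standard error 0.075), or 0.50 of the range of the controls.

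The kinases had small differences between the groups, up to 0.15 in size on the log2 scale. The log2 level of Ckb, the cytosolic brain form, was 12.88, 13.03 and 12.98 in controls 1, 2 and 3, and 13.12, 13.13 and 13.11 in mutants 1, 2 and 3. All mutant arrays were above all controls, but by as little as 0.083, and the log2 difference was 0.15 (standard error 0.057), a fold of 1.11. The mean log2 level of Ckb was above that of 99.8% of all genes. How far the array compresses differences at that level was not tested.
The log2 level of Ckmt1, the ubiquitous mitochondrial form, was 10.58, 10.52 and 10.51 in controls 1, 2 and 3, and 10.46, 10.49 and 10.48 in mutants 1, 2 and 3. Here the mutants lay below the controls, with a smallest gap of 0.019 and a log2 difference of -0.060 (standard error 0.051). This was the smallest difference of the 6 genes.
The log2 level of Ckmt2, the muscle form, was 5.24, 5.40 and 5.60 in controls 1, 2 and 3, and 5.30, 5.31 and 5.25 in mutants 1, 2 and 3. All 6 values lie under the array medians, so Ckmt2 was not shown to be above background, and its log2 difference of -0.13 (standard error 0.087) is that of overlapping groups. Groups did not overlap for 4 of the 6 creatine genes (Gamt, Gatm, Ckb and Ckmt1), where 31.6% of all genes had groups without overlap.

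**Figure D3:**
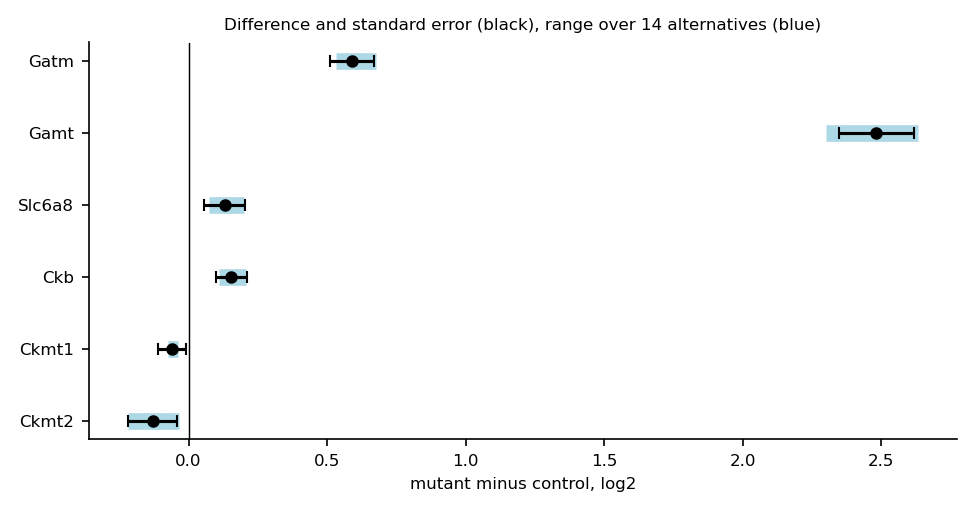
Mutant minus control log2 difference of each creatine gene on the horizontal axis. Black points and bars give the difference and its standard error from limma (n = 3 per group), and blue bars the range over 14 alternative settings (13 for Ckmt2, which a filter on dim genes removed). Gamt lies between 2.30 and 2.63 over all settings, and every gene keeps its side of 0. Settings that use the same array values could not move a difference.

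For each of the 6 creatine genes the control arrays spanned a wider range than the mutant arrays. This was so for 63.2% of all 19938 genes, with a median range of 0.16 in controls and 0.12 in mutants on the log2 scale. Over the 6 creatine genes the median range was 0.28 in controls and 0.079 in mutants. The range was 0.52 in controls and 0.34 in mutants for Gamt, 0.29 and 0.092 for Gatm, and 0.15 and 0.014 for Ckb. The arrays that stood apart were not the same for each gene. Among controls, control 2 was highest for Gamt and Ckb, control 3 for Gatm and Ckmt2, and control 1 for Slc6a8 and Ckmt1.

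Relatives of the creatine genes were measured as well. The log2 difference of Ckm, the cytosolic muscle creatine kinase, was -0.020 (adjusted p = 0.873 from limma), and that of the creatine transporter Slc16a12 was -0.068 (adjusted p = 0.538). Slc16a9, a related solute carrier, had -0.16 (adjusted p = 0.203). Among transporters of the Slc6 family, Slc6a11, a GABA transporter of astrocytes, rose from 10.11 ± 0.075 (SD, n = 3) to 10.44 ± 0.020 (SD, n = 3) on the log2 scale, which is 0.33 higher (limma, standard error 0.057, adjusted p = 0.00516). The GABA and taurine transporters Slc6a13 and Slc6a6 had differences of -0.064 and 0.037 and did not pass (adjusted p = 0.620 and 0.873). Of these 6 relatives, 1 was therefore higher and 5 did not pass, with a median log2 difference of -0.042, where the median of all genes was -0.0027.

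The substrates of creatine synthesis are arginine, glycine and a methyl donor. Of 21 measured genes of arginine and glycine supply and use, 6 were higher and 3 lower in mutants, and their median log2 difference was 0.050. Among all genes, 9.23% were higher and 5.93% lower. Asl, which releases arginine from argininosuccinate, had log2 levels of 7.19, 6.91 and 7.14 in controls 1, 2 and 3, and 8.44, 8.55 and 8.59 in mutants 1, 2 and 3. Its log2 level rose by 1.45 (standard error 0.080, adjusted p = 1.35e-05 from limma), and its groups were far apart. The arginine carrier Slc7a1 rose by 0.40 (standard error 0.058, adjusted p = 0.00201) and Nos1, which uses arginine to make nitric oxide, by 1.24. Odc1, which uses ornithine, the other product of the Gatm step, fell by 0.45 (standard error 0.067, adjusted p = 0.00228). The other 5 genes of the list that passed, named after their values were seen, were the glycine cleavage genes Gldc and Amt with 0.49 and 0.48, Psat1 of serine synthesis with 0.22, Agmat with -0.33 and Dld, another subunit of glycine cleavage, with -0.26. None of these 5 calls held with the methods' test, which gave an adjusted p of 0.112 for Gldc, 0.0550 for Amt, 0.0589 for Psat1, 0.0524 for Agmat and 0.123 for Dld. In limma the call of Psat1 was also lost without control 2, control 3, mutant 2 or mutant 3 (adjusted p up to 0.107), and that of Dld without control 2, mutant 2 or mutant 3 (up to 0.111).
Of 20 genes of the methyl donor cycle and folate metabolism, 3 were higher and 1 lower, with a median log2 difference of 0.073. Mthfd1l, a mitochondrial folate enzyme, rose by 1.29 (standard error 0.12, adjusted p = 2.16e-04 from limma) and the thymidylate synthase Tyms by 0.59. Adk, which removes adenosine, a product of this cycle, had 0.29, and Mat2b, a regulatory subunit of the enzyme that makes S-adenosylmethionine, had -0.21. The last 2 calls were lost without single arrays, Adk without any of 3 arrays (adjusted p = 0.0948 without mutant 3) and Mat2b without any of 5 arrays (0.148 without mutant 2).

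Other enzymes pass phosphate between nucleotides. Of 13 adenylate and nucleoside diphosphate kinases, 4 were higher and 1 lower, and the median log2 difference was 0.055. Among all genes, 9.23% were higher and 5.93% lower. Ak4, an adenylate kinase of the mitochondrial matrix, had log2 levels of 9.81, 10.06 and 10.09 in controls 1, 2 and 3, and 11.20, 11.37 and 11.25 in mutants 1, 2 and 3. Its rise by 1.29 (limma, standard error 0.085, adjusted p = 3.42e-05) was more than the whole range of either group. Ak3, also of the matrix, rose by 0.63 and the brain form Ak5 by 0.56. The cytosolic Ak1, named after its value was seen, had a log2 difference of 0.25 and passed (adjusted p = 0.0214), but not without control 2, mutant 1 or mutant 3 (adjusted p up to 0.0916 in limma) and not with the methods' test (0.0815). The nucleoside diphosphate kinase Nme2 fell by 0.30 (standard error 0.052, adjusted p = 0.00521).
Genes of transport across mitochondrial membranes, with subunits of the ATP synthase, had a median log2 difference of -0.080. Of these 17 genes, 2 were lower and 15 did not pass, namely the ATP carrier Slc25a25 with -0.42 (standard error 0.063, adjusted p = 0.00246) and the adenine nucleotide translocator Slc25a5 with -0.20, a call lost without any of 4 arrays (adjusted p = 0.166 without control 2).

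Of 25 genes of glycolysis and lactate transport, 3 were higher and 2 lower, with a median log2 difference of -0.094. Pfkfb3, which makes an activator of glycolysis, fell by 0.48 (standard error 0.069, adjusted p = 0.00194 from limma), and its relative Pfkfb4 had 0.21. The muscle form of phosphoglycerate mutase, Pgam2, had -0.87, the pyruvate kinase Pkm 0.22 and the hexokinase Hk2, named after its value was seen, 0.27. Leaving out 1 array ended the calls of Pgam2 (adjusted p = 0.0578 without mutant 2), Pkm (0.0781 without mutant 3) and Pfkfb4 (0.0982 without mutant 3). The call of Hk2 was lost without any single array other than control 1, with an adjusted p of up to 0.109 in limma, and with the methods' test (0.144).
Of 19 energy sensors and regulators of mitochondrial genes, 2 were higher and 2 lower. They were the nuclear receptor Esrrb with a log2 difference of 0.42, the coactivator Ppargc1a with -0.30, and the AMP-activated kinase subunits Prkaa2 with 0.26 and Prkag1 with -0.24. Each of these 4 calls was lost without at least 3 arrays in turn, with adjusted p from limma of 0.0959 and 0.104 for Esrrb and Ppargc1a without mutant 3, 0.165 for Prkaa2 without mutant 1 and 0.145 for Prkag1 without mutant 2. Of all genes, 9.23% were higher and 5.93% lower in limma. Taking the 7 lists as 121 different genes, 19 were higher (15.7%) and 11 lower (9.09%). With the unpaired test of the study's methods after adjustment these were 11 and 5, and without mutant 3 they were 11 and 7. The lower genes were 18 without control 1, 6 without control 2, 7 without mutant 1 and 5 without mutant 2. Over all genes, lower calls moved as well, from 1183 with all arrays to 1731 without control 1 and 702 without control 2. They were 678 without mutant 1 and 684 without mutant 2. By list, 5 genes of mitochondrial transport and ATP synthase were lower and 5 energy sensors and regulators higher without control 1.

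**Figure D4:**
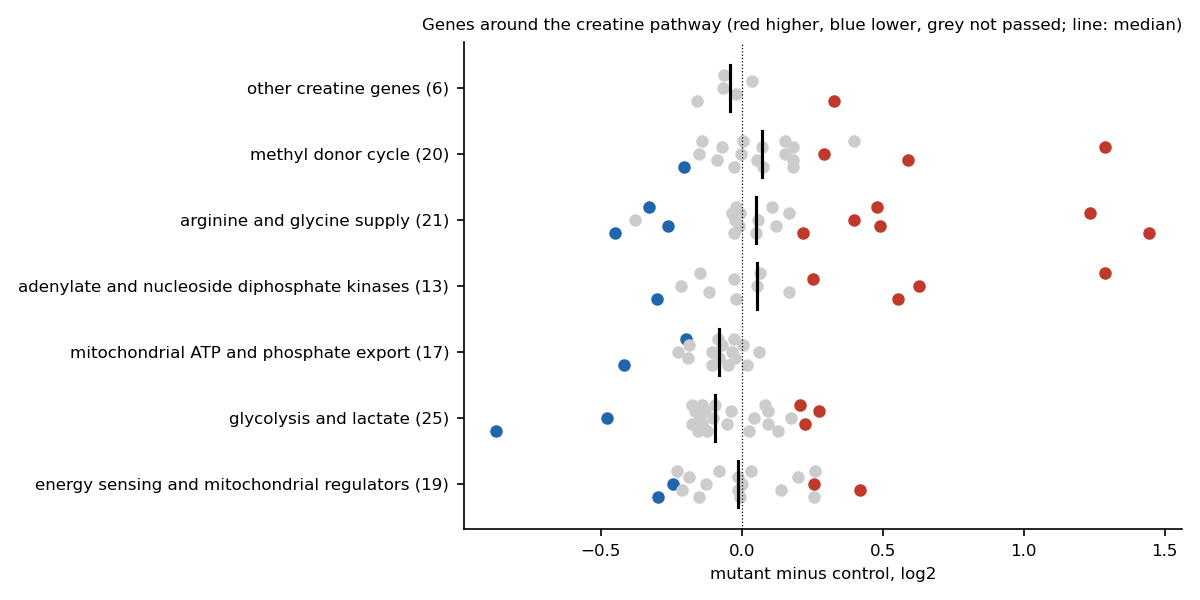
Mutant minus control log2 difference of the measured genes of 7 lists around the creatine pathway on the horizontal axis, with the number of genes in brackets. Red points are higher and blue points lower at an adjusted p under 0.05 in limma, grey points did not pass, and black lines are list medians (n = 3 arrays per group). Asl at 1.45, Mthfd1l and Ak4 at 1.29 and Nos1 at 1.24 lie farthest to the right. The row labelled mitochondrial export holds genes of transport in either direction and subunits of the ATP synthase.

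Since creatine synthesis is known from glia, markers of the cells in and next to the granule cell layer are given beside Gamt and Gatm. In dissected tissue, fewer cells of a type and less RNA per cell cannot be told apart. Over the 7 marker lists, 12.2% of 98 genes were higher and 16.3% lower in limma, where 9.23% and 5.93% of all genes were. The mean log2 level of 16 astrocyte markers was between 8.63 and 8.91 in controls and between 8.81 and 9.00 in mutants, so that the groups overlapped. Of these markers 3 were higher and 13 did not pass (1 was higher without control 2), with a median log2 difference of 0.083. Gfap, the filament protein of astrocytes, had a difference of 0.54 and a log2 level between 7.88 and 8.23 in controls and between 8.44 and 8.74 in mutants. The glutamate transporter Slc1a2 rose by 0.32 (standard error 0.062, adjusted p = 0.00845 from limma), and Ntsr2 had 0.34. The calls of Gfap and Ntsr2 were lost without single arrays (adjusted p = 0.0605 without control 2 and 0.133 without mutant 2). With the unpaired test of the study's methods, Slc1a2, Gfap and Ntsr2 had an adjusted p of 0.0659, 0.147 and 0.222 and did not pass.
The mean log2 level of 16 oligodendrocyte markers was lower in every mutant, between 7.25 and 7.42, than in every control, between 7.50 and 7.56. The median log2 difference of these markers was -0.13. Of them 2 were lower and 14 did not pass (5 were lower without control 1, and 1 without control 2, control 3 or mutant 3). Ermn, a myelin protein, fell by 1.71 in log2 level (limma, standard error 0.28, adjusted p = 0.00422), and Ugt8a, an enzyme of myelin lipid synthesis, had -0.34, a call lost without any of 4 arrays (adjusted p = 0.0919 without control 2). With the methods' test Ermn and Ugt8a did not pass (adjusted p = 0.114 and 0.145). The part of glial cells in the values of Gamt and Gatm was not tested.

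Of 15 granule cell markers, a list that holds Bcl11b, 2 were higher and 8 lower (2 and 4 with the methods' test), with a median log2 difference of -0.28. Their log2 differences were -1.64 for Trpc6, -0.69 for Stxbp6, -1.58 for Bcl11b and 1.13 for Tdo2. The list mean was between 11.05 and 11.12 in controls and between 10.68 and 10.75 in mutants, above the array medians in all 6 arrays.
Of 14 microglia markers 2 were lower, Cd68 with -1.04 and Tmem119 with -0.32, and 8 were lower without control 1. The filter on dim genes removed both Cd68 and Tmem119, and with it 0 microglia markers were lower. The median log2 difference of this list was -0.26. Its mean was between 6.843 and 7.23 in controls and between 6.68 and 6.840 in mutants, groups apart by a narrow margin. Of 13 endothelial and mural markers 2 were higher, Pdgfrb with 0.40 and Flt1 with 0.44, the latter not without mutant 2 (adjusted p = 0.112). Of 13 interneuron markers, Cck rose by 1.56, while Npy and Gad1 had -0.58 and -0.27, calls lost without mutant 1 (adjusted p = 0.0528) and without mutant 3 (0.0826). Of 12 markers of pyramidal and mossy cells 4 were higher and 2 lower. Among them were Bok with 1.90, Grik4 with 0.58, Pex5l with 0.47 and Fibcd1 with -0.94. The list mean was higher in every mutant (7.84 to 7.97) than in every control (7.73 to 7.78). The median log2 difference of this list was 0.036, far below that of Bok, which weighs on the mean. With the methods' test the adjusted p was 0.0703 for Tmem119, 0.216 for Flt1, 0.137 for Cck, 0.136 for Npy, 0.0919 for Gad1 and 0.0718 for Pex5l, so that these 6 calls were lost. Adjusted p of markers are from limma except where the methods' test is named, and the part of these cells in the values of the creatine genes was not tested.

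**Figure D5:**
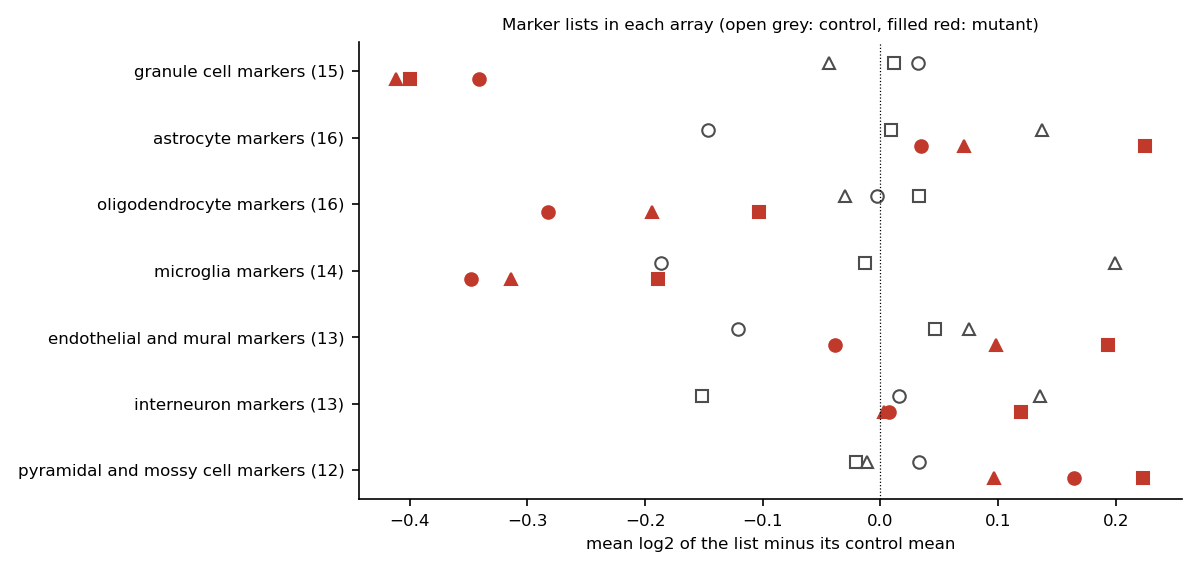
Mean log2 level of each marker list in each array, as a difference from the control mean on the horizontal axis, with the number of genes in brackets. Open grey symbols are controls and filled red symbols mutants, with circles, squares and triangles for replicates 1, 2 and 3. Astrocyte markers overlap between groups. The list means of granule cells, oligodendrocytes and, by a narrow margin, microglia are lower in every mutant than in every control. The list mean of pyramidal and mossy cells is higher in every mutant, with a median log2 difference of 0.036.

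The genes whose pattern over the 6 arrays was most like that of Gamt were found by the root mean square distance between deviations from the control mean on the log2 scale. They were Vwa5b1 at a distance of 0.12, Frem3 at 0.23, the secreted protein Olfm2 at 0.23, Tmem114 at 0.24 and Cpne5, a calcium-dependent membrane binding protein, at 0.26. The mean log2 level of Vwa5b1 was 7.63 ± 0.26 (SD, n = 3) over controls and 10.21 ± 0.067 (SD, n = 3) over mutants. Frem3 stood at 5.21 in controls, under the array medians, and was not shown to be above background there. The genes nearest to Gatm were Usp6nl at 0.029, Serf1 at 0.041, Tns3 at 0.053, the heparan sulfate polymerase Ext1 at 0.057 and Mpp3 at 0.060, with log2 differences between 0.54 and 0.61. These distances describe genes with a difference of like size and like spread, and no test was made of them.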

How the data were processed

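RNA of 3 control and 3 mutant samples was measured on 1-colour arrays. The authors deposited log2 values per probe set from RMA, run in Affymetrix Expression Console according to the submitters' processing notes. RMA subtracts background, sets all arrays to 1 distribution and summarises the probes of each probe set, which removes a shift shared by all genes. Their versions and the genome build were not given in the sources used here. The paper names BRB-ArrayTools for the analysis and states no array test or adjustment. What is called the methods' test here is its general unpaired t-test with an adjustment added, not the study's array analysis.

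Of 35556 probe sets, 21789 are paired with 1 gene, 1621 with several and 12146 are not listed. Of the former, 21698 were found by Entrez number in RefSeq (GRCm38.p6). The probe set with the highest mean was used for each of 19938 genes, with no filter on level. The group test was limma (version 3.58.1, R 4.3.3, no covariates, lmFit and eBayes), its p-values were adjusted over all genes by Benjamini-Hochberg with a threshold of 0.05, and simulated data with known changes were used to check it. With 3 arrays a group, precision is limited by their number, and an exact permutation test could not go below p = 0.1.

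The members and lists were chosen with earlier results of these data known. Named are the members, Bcl11b, the relatives of the creatine genes, up to 4 genes of each list with the smallest p among those that passed, and the 5 genes nearest in pattern to each member that passed. Genes named outside this rule are marked as such. Promoter windows come from RefSeq. Alternatives were the mean over a gene's probe sets, a filter at a mean log2 of 7.06 (the median of all genes), renewed quantile normalization, subtraction of array medians, a mean-variance trend with robust prior, array weights, the methods' unpaired test, the replicate number as a block and leaving out each array. Same-numbered arrays deviated from their group means with correlations of 0.16, -0.033 and 0.12, and no source says what a number marks, so arrays were not paired. The titles hold another number that no source explains, and a batch is not named anywhere.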

Additional observations from a re-analysis of the deposited data

How the results depend on the processing

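The log2 differences of all 6 creatine genes kept their direction under every alternative run, and none moved by more than 1 SD of its replicates. The mean over probe sets, the filter, the trend, the methods' test and the block could not move these differences. Those settings use the same array values for each member. Without 1 array at a time, Gamt lay between 2.37 and 2.63, Gatm between 0.53 and 0.68, Slc6a8 between 0.073 and 0.20, Ckb between 0.11 and 0.19, Ckmt1 between -0.073 and -0.038 and Ckmt2 between -0.22 and -0.035. Each has 1 probe set, so no value per probe set could be added, and Ckmt2 has no value under the filter on dim genes. The number of members that passed was 2 in each fit without 1 array, 3 with renewed quantile normalization and with the mean-variance trend, which added Ckb, and 1 with the methods' test. Over all genes, 1206 to 2756 were higher without 1 array, 1863 with renewed quantile normalization, 1843 with the trend and 694 with the methods' test. Nothing is read from the member counts, as the members were picked with this contrast known. Bcl11b passed under all alternatives.

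Of the genes of the pathway lists, 19 were higher and 11 lower. These counts were 11 and 5 with the methods' test and 30 and 27 with array weights, and 7 were lower after subtraction of array medians. Without 1 array they lay between 11 (without mutant 3) and 23 (without control 1) for higher genes and between 5 (without mutant 2) and 18 (without control 1) for lower genes. Of marker genes, 12 were higher and 16 lower, with 5 and 6 under the methods' test, 26 lower with array weights, and between 9 and 12 higher and 12 and 27 (without control 1) lower without 1 array. Of 43 list genes that were named by the rule and passed, 22 did so under all alternatives. Of these 43 genes, 19 were lost with the methods' test and 16 without some array, and none turned its sign. Gldc, Amt, Psat1, Agmat, Dld, Ak1 and Hk2, named outside the rule, are not in these counts. Each of them was lost with the methods' test, and Psat1, Dld, Ak1 and Hk2 also without some array. Over all genes, 1840 were higher and 1183 lower, against 3156 and 2371 with array weights, 694 and 447 with the methods' test, and between 1206 and 2756 and between 678 and 1731 without 1 array, the highest without control 1. The cause of these shifts was not tested.

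With the replicate number as a block, 19 pathway genes were higher and 10 lower, 12 and 21 marker genes, and 1925 and 1251 of all genes, and the differences of the creatine genes were the same, as the balanced block fixes. For 4 of the 6 arrays the best correlated array of the other group had the same number.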
